A study of Mus musculus with 35 samples.

Results

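The 12 mice described here are the Q111/+ mice that received the *Htt* antisense oligonucleotide (ASO) or the control ASO, 6 in each group, out of 35 mice whose striatal RNA was sequenced. They were chosen by 2 sample labels, the genotype Q111/+ and the treatment, which the labels call ASO1 or Control (ASO1 is read here as the *Htt* ASO, since saline and Control account for the remaining labels). All 12 were females of strain C57BL6/J, heterozygous for the Q111 allele, and were treated weekly by intraperitoneal injection with 50 mg per kg of ASO from 2 to 10 months of age. The *Htt* ASO mice were 299 to 302 days old and the control ASO mice 300 to 303 days old. RNA came from the right hemistriatum of mice perfused with saline, 1 library per mouse. The other 23 mice were 6 Q111/+ mice given saline and 17 wild-type (+/+) mice given *Htt* ASO (6), control ASO (5) or saline (6), with the same strain, sex, schedule and tissue. Both ASO groups carry the mutation and the weekly injections, and the oligonucleotide is the planned difference between them. The 2 oligonucleotides differ in sequence as well as in whether they target *Htt*, and the part of each was not tested.

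An ASO is a short, chemically modified strand of nucleic acid that pairs with a target RNA and, in the design used against *Htt*, leads RNase H to cut it. The Q111 allele is a knock-in of an expanded CAG repeat into the mouse's own *Htt* gene, the change that causes Huntington's disease, and it lowers the expression of many genes of the striatal medium spiny neurons. Given into the body cavity, ASOs reach the liver and other peripheral organs and cross into the brain poorly, and the study used this to lower huntingtin in the periphery. Type I interferons are secreted signals of innate immunity. They act through a receptor shared by most cells, and transcription factors that include STAT2 and IRF9 then switch on a common set of antiviral and antigen-presenting genes, a programme that brain endothelium, the lining of the vessels, can also mount.

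Depth was even. The *Htt* ASO libraries held 32394717 to 36802588 estimated counts and the control ASO libraries 32850579 to 38641924. Values below are CPM, each gene's count relative to the scaled total of its library and the usual unit for such data, and folds are *Htt* ASO over control ASO. A gene is called when its limma p-value is under 0.05 after Benjamini-Hochberg adjustment across the 17639 tested genes. The medium spiny neuron markers that define the tissue were present in all 12 mice, with *Drd1a* at 200 to 237 CPM and *Drd2* at 113 to 135 CPM. In bulk tissue, fewer cells of a type and less RNA per cell cannot be told apart.

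Most of the genes that differed were higher with *Htt* ASO, and the largest identifiable group among them was interferon-stimulated. Of the 17639 genes, 63 (0.357%) were called, 58 higher in *Htt* ASO mice (0.329%) and 5 lower (0.0283%). The called higher genes had a median log2 fold change of 0.69, from 1.19-fold to 6.67-fold, and the called lower genes a median of -0.39. Over all genes tested, the median log2 fold change was -0.0064. The 6 *Htt* ASO mice lay wholly above the 6 control ASO mice for 50 of the 58 called higher genes, where 135 of all genes did so (0.765%), and wholly below for 4 of the 5 called lower genes, where 31 of all genes did so (0.176%). Of the 58 called higher genes, 25 belong to the interferon-related lists (antiviral effectors, oligoadenylate synthetases, inducible GTPases, MHC class I and class II, signalling and sensor genes), and 29 belong to none of the lists used here. The lists are not exhaustive, so 25 is not a count of all interferon-stimulated genes among the 58. The sample titles carry a number after the letter L, whose meaning the labels do not give. Adjusting for that number left 50 of the 63 calls and added 1 other, for 51 in all.

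The promoters of the called higher genes are shown first because interferon-responsive genes are known for a recognisable motif, the interferon-stimulated response element (ISRE). Of the 58 genes, 56 had a current symbol and 40 had a window in the RefSeq table, which covers 250 bases before and 50 after each gene's start on build GRCm38.p6. The core GAAANNGAA, read on both strands, stood in a window of 18 of the 40 genes (45%). Over all 32851 windows it stood in 8.56%, and over the 11281 tested genes with a window in 8.53%. The match was found for 13 of the 18 genes with a window in the interferon-related lists and for 5 of the 22 others. The second interferon motif, the gamma-activated site TTCNNNGAA, stood in 7 of the 40 (17.5%) against 8.3% of all windows, and in 1 of the 5 windows that held both motifs they overlapped. Among the called lower genes, 2 of the 3 with a window held the ISRE core, *Sgk1* and *Nfkbia*. A match is a description of the letters and not a measured binding site.

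The 150 bases before the start are printed for the 6 called higher genes with the smallest adjusted p that have a single window and an ISRE core within this stretch. They are shown 5′ to 3′ on the strand of the gene, with the core in capitals. The positions are on GRCm38.p6, which is not the build the counts were made on, and lie upstream of the annotated first exon.
Tgtp1, chr11:48992247-48992396, minus strand: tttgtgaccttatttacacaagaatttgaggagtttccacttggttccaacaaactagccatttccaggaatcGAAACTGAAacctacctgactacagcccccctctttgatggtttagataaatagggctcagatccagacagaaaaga
Irgm2, chr11:58214827-58214976, plus strand: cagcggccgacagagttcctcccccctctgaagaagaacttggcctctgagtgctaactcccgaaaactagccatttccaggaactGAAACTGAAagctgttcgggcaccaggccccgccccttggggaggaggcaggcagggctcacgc
Slfn5, chr11:82951952-82952101, plus strand: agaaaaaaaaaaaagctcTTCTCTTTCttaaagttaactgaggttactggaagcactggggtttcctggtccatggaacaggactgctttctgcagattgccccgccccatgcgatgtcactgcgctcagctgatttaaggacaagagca
Lgals9, chr11:78984925-78985074, minus strand: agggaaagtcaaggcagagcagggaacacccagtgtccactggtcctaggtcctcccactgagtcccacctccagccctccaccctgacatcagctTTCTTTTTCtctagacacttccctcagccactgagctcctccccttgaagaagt
Oas1a, chr5:120907526-120907675, minus strand: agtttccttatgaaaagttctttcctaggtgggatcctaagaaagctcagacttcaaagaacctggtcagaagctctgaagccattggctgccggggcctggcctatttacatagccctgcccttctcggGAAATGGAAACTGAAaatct
Ifih1, chr2:62646256-62646405, minus strand: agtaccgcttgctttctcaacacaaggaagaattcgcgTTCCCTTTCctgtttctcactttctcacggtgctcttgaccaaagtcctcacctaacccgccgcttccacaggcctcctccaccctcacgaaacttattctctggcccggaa
*Tgtp1* and *Irgm2*, which encode immunity-related GTPases, carry the core 77 and 64 bases before their starts. *Oas1a* carries 2 overlapping cores, 20 and 14 bases before its start. *Slfn5*, a Schlafen family gene, and *Ifih1*, the cytosolic RNA sensor MDA5, carry it farther away, at 132 and 112 bases, in the reverse direction, and so does *Lgals9*, the secreted lectin galectin-9, at 54 bases. The windows of *Slfn5*, *Ifih1* and *Lgals9* each hold another core that is not whole within the printed stretch. It begins 155 bases before the start of *Slfn5*, and at bases 33 and 17 after the starts of *Ifih1* and *Lgals9*.

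The gene with the smallest adjusted p was *Oas2*, one of the oligoadenylate synthetases that sense double-stranded RNA. Its level ran from 3.09 to 6.00 CPM in the *Htt* ASO mice (median 4.82) and from 0.864 to 1.5 CPM in the control ASO mice (median 1.26). Every treated mouse was above every control, and the log2 fold change was 1.89 (SE 0.20, adjusted p = 7.7e-07 by limma). *Oas1a*, of the same family, lay between 1.47 and 2.75 CPM against 0.568 to 1.03 CPM and rose by 1.28 on the log2 scale (SE 0.20). Of the 9 tested genes of this list, these 2 were called. *Oasl2* had a log2 fold change of 0.92 (adjusted p = 0.16), with overlapping groups.

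**Figure D1:**
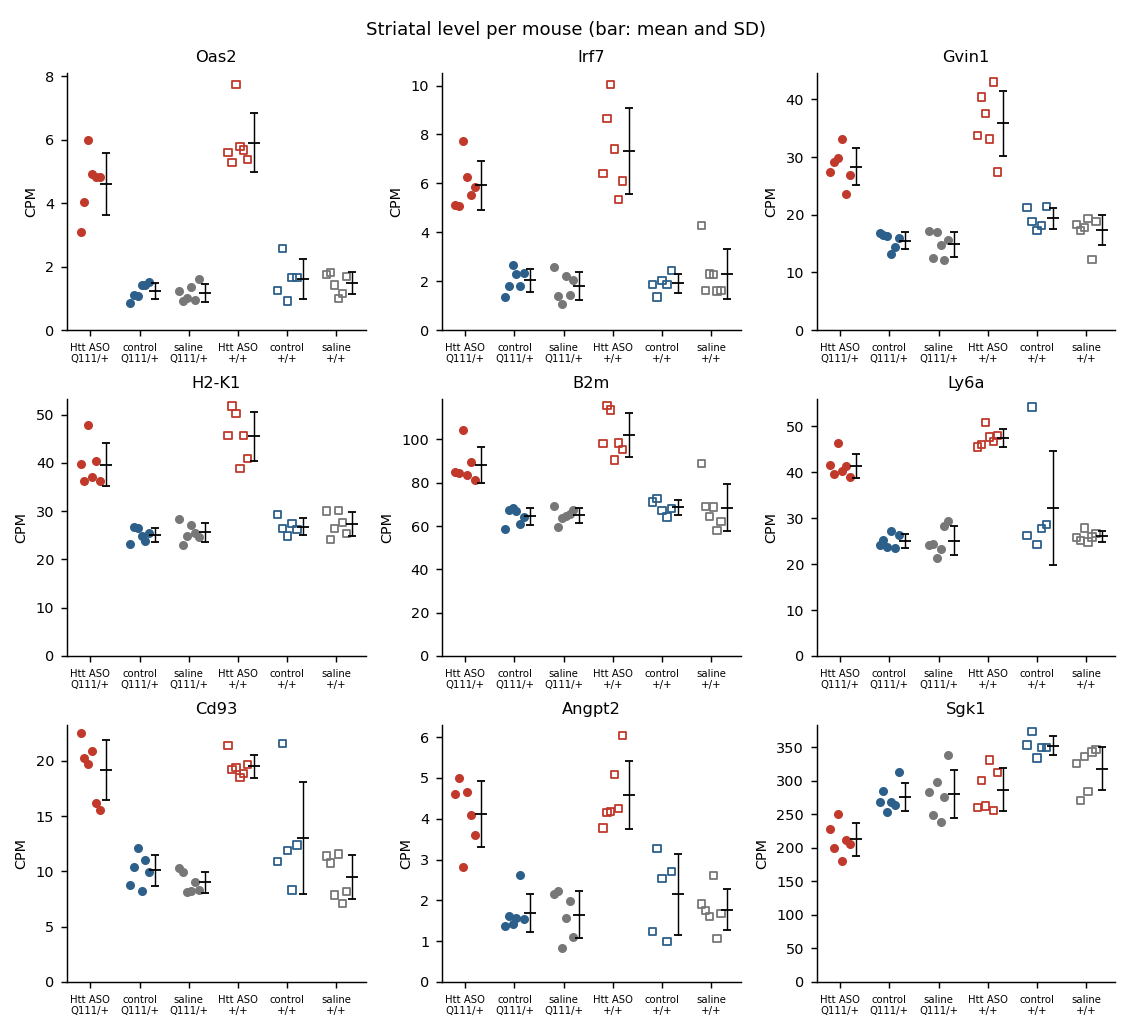
Level in CPM (vertical axes, linear, from 0) of 9 genes in each mouse, by treatment and genotype; filled circles are Q111/+ mice, open squares +/+ mice, and the bars beside them give the mean and SD. For the first 8 genes the 6 Q111/+ mice given *Htt* ASO all sit above the 6 given control ASO, and for *Sgk1* they all sit below.

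*Irf7*, the transcription factor that amplifies interferon signalling, was the single called member of the 19 tested STAT, IRF and interferon receptor genes. It lay between 5.07 and 7.73 CPM in *Htt* ASO mice (median 5.68) and between 1.34 and 2.66 CPM in control ASO mice (median 2.05), a 2.93-fold difference (log2 1.55, SE 0.21, adjusted p = 2.7e-05 by limma). Other components that carry the signal were not called. *Stat2* had a log2 fold change of 0.12 (adjusted p = 0.58) and *Irf9* (listed as *Isgf3g*) 0.32 (0.24), and the receptor genes *Ifnar1* and *Ifnar2* had 0.04 and 0.07. The median of the list was 0.041. Of the 21 listed chemokine and cytokine genes, 10 had enough counts to be tested and none was called by limma, including *Cxcl10*, a classical interferon target, at 0.0648 to 1.32 CPM against 0 to 0.519 CPM. The gene for interferon gamma, *Ifng*, had no count in any of the 12 mice.

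Antiviral effector genes shared 1 direction. All 28 tested members had a positive log2 fold change, with a median of 0.47, and 7 were called (*Ifitm3*, *Ifi44*, *Samd9l*, *Ifi27*, *Parp14*, *Ifit1* and *Trim25*). The number called was 5 with the L number as a covariate or without mouse GR4, GS2, GV1 or GV2, and 12 by DESeq2. *Ifitm3*, which blocks the entry of enveloped viruses, lay between 10.0 and 14.6 CPM in *Htt* ASO mice and between 5.06 and 9.30 CPM in control ASO mice (log2 fold change 0.80, SE 0.12). *Ifi44* went from 0.209 to 1.01 CPM in the controls to 1.14 to 2.45 CPM, a 3.08-fold difference. *Ifit1*, which binds foreign 5′ ends of RNA, had a median of 5.42 CPM against 2.43 CPM (log2 fold change 1.07), and its call was lost without mouse GR4, GS2, GV1, GV2 or GY2 (adjusted p = 0.0502 to 0.0767), with the L number as a covariate or with only the groups compared (up to 0.0769). The call of *Trim25*, a ubiquitin ligase of RNA sensing, was lost without any of 8 mice (up to 0.168) and with the L number as a covariate (0.125). Among the members not called, *Bst2*, *Usp18*, *Rsad2*, *Sp100*, *Parp9* and *Lgals3bp* had groups that did not overlap, with log2 fold changes of 0.75, 0.85, 0.57, 0.48, 0.47 and 0.42. Other textbook members had overlapping groups, such as *Isg15* (0.60, adjusted p = 0.74), *Ifit3* (0.47, 0.49) and *Mx1* (0.58, 0.999). The name *Ifi27* in the files may stand for *Ifi27* or *Ifi27l2a*.

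The inducible GTPases, which attack the vacuoles of intracellular parasites and bacteria, had a median log2 fold change of 0.66, and 6 of 12 tested members were called, all higher. *Gvin1* lay between 23.5 and 33.2 CPM (median 28.3) against 13.2 to 16.9 CPM (median 16.1), with no overlap (log2 fold change 0.87, SE 0.11, adjusted p = 1.6e-05 by limma). *Tgtp* (current symbol *Tgtp1*) lay between 5.20 and 6.65 CPM against 2.63 to 3.30 CPM. *Iigp2* (*Irgm2*), *Gbp3*, *Gbp4* and *Igtp* rose 1.55-fold, 1.61-fold, 1.92-fold and 1.47-fold. *Gbp4* and *Igtp* overlapped between groups. The call of *Gbp4* was lost without mouse GS2 (adjusted p = 0.0529), and that of *Igtp* without any of 6 mice (GR4, GS2, GU2, GV1, GV2 and GY2, up to 0.114), with the L number as a covariate or with only the groups compared (up to 0.0975). *Tgtp1* has a near-identical neighbour and *Gvin1* has close copies, so reads may be shared among them.

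Class I antigen presentation, which displays peptides from inside the cell, was represented by 6 called genes of 25 tested, and these included both chains of the complex. *H2-K1*, a classical heavy chain, lay between 36.2 and 47.9 CPM in *Htt* ASO mice (median 38.5) and between 23.2 and 26.6 CPM in control ASO mice (median 25.2). The fold change was 1.57 (log2 0.65, SE 0.07, adjusted p = 1.1e-06 by limma). *H2-D1*, the other classical heavy chain measured, rose 1.47-fold, from 32.8 to 39.5 CPM up to 46.7 to 60.8 CPM. *B2m*, the invariant light chain, lay between 81.2 and 104 CPM against 58.8 to 68.4 CPM, a 1.37-fold rise. None of these 3 genes overlapped between groups. *H2-Q6*, *H2-Q7* and *H2-Q8*, non-classical chains, had larger folds (4.11, 3.76 and 2.53) at 1.79 to 5.27 CPM, but they are near-identical in sequence and the estimated counts may be split uncertainly among them. The peptide transporters and immunoproteasome subunits were not called, with log2 fold changes of 0.39 for *Tap1*, 0.21 for *Tap2*, 0.43 for *Psmb8* and 0.33 for *Psmb9*. The median of the list was 0.21. Of 9 tested MHC class II genes, which are used by professional antigen-presenting cells, none was called by limma, with a median of 0.36 (0.12 in +/+ mice, and 0.12 when genes whose mean was under 1 CPM were dropped, which left 3) and *H2-Aa* at 0.417 to 0.830 CPM against 0.186 to 0.495 CPM.

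Of 18 tested nucleic acid sensors, 3 were called, *Ifi203*, *Ifih1* and *Zbp1*. *Ifih1* lay between 4.17 and 6.85 CPM against 2.73 to 3.50 CPM (log2 fold change 0.70, SE 0.11), and *Ifi203*, of the DNA-binding HIN-200 family, between 3.57 and 4.72 CPM against 2.33 to 2.69 CPM. *Zbp1*, a sensor of Z-form nucleic acids, was low, at 0.367 to 1.04 CPM against 0.0558 to 0.270 CPM, and its call was lost without mouse GR4, GT1 or GV1 (adjusted p = 0.0787, 0.0507 and 0.0532). *Tlr9*, the endosomal receptor for unmethylated CpG DNA, had a log2 fold change of 0.23 (adjusted p = 0.96), and *Tlr7* -0.25 (0.35). The 12 tested genes for RNase H and other proteins that bind oligonucleotides had a median of -0.011 with none called by limma, and *Rnaseh1* lay between 8.04 and 9.18 CPM against 7.91 to 9.13 CPM.

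**Figure D2:**
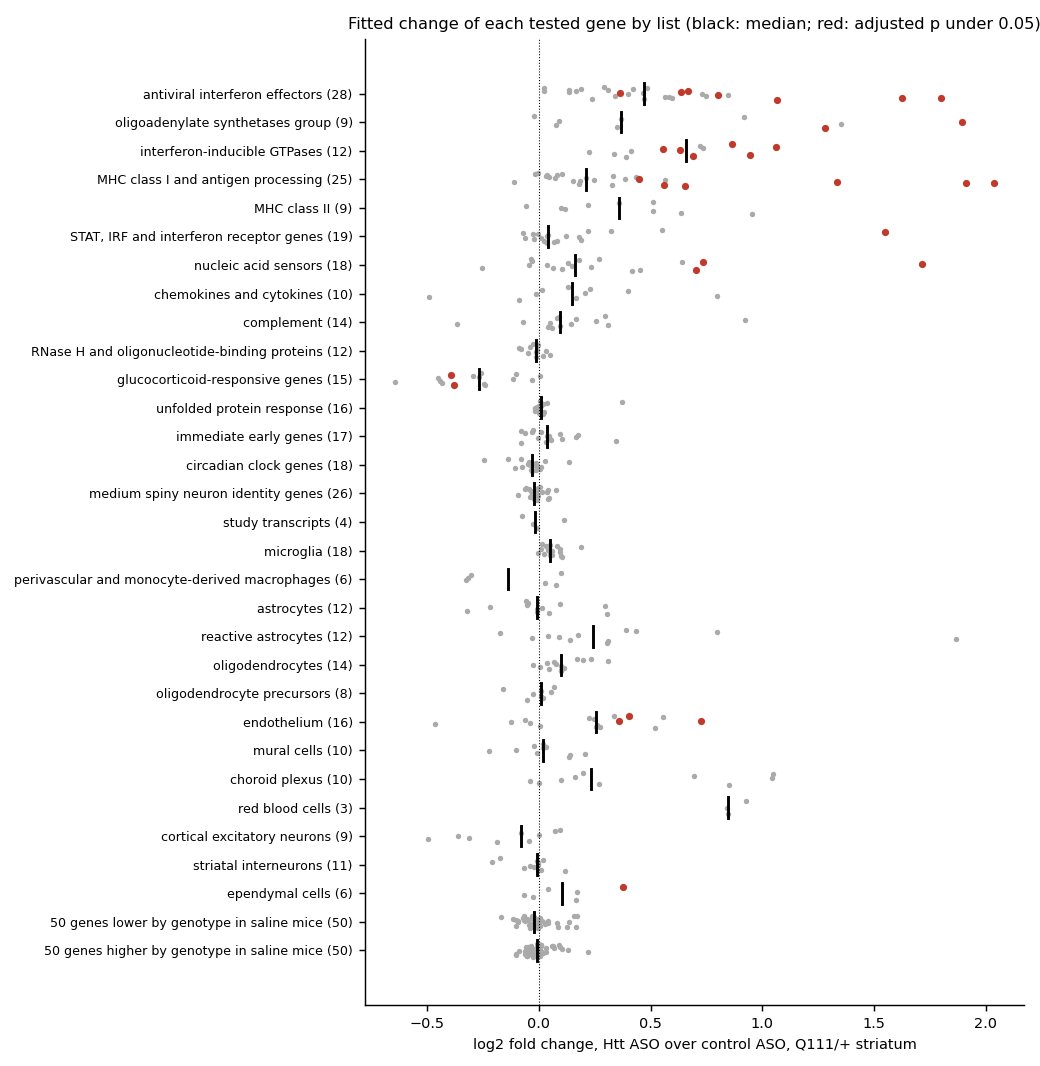
Log2 fold change (horizontal axis) of each tested gene in *Htt* ASO against control ASO Q111/+ mice, one row per gene list with the number of tested genes; black bars are list medians and red points called genes. The interferon effector and GTPase rows lie to the right of 0 as a whole, the glucocorticoid-responsive row mostly to the left, and the medium spiny neuron row around 0.

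Several called higher genes outside the interferon lists are known from the vessel wall. Of 16 tested endothelial markers, 3 were called, *Ly6a*, *Tie1* and *Ly6c1*, and the median of the list was 0.26. The number called higher was 2 with the L number as a covariate and 6 with only the groups compared, and 1 marker was called lower in the latter, by edgeR, by DESeq2, with sample quality weights and with the first 2 letters of the mouse name as a block (the mouse-name block). *Ly6a*, a surface protein of brain endothelium that interferon also induces, lay between 38.9 and 46.4 CPM (median 40.9) against 23.5 to 27.2 CPM (median 24.7), a 1.65-fold rise with no overlap (adjusted p = 0.00013 by limma). *Tie1*, an endothelial receptor kinase, rose 1.32-fold and *Ly6c1* 1.28-fold. The call of *Ly6c1* was lost without mouse GS2, GT1, GV1 or GV2 (adjusted p = 0.0502 to 0.0993) and with the L number as a covariate (0.0769). The other endothelial markers did not share a direction. *Vwf*, the clotting factor carrier, lay between 38.6 and 46.6 CPM against 25.8 to 32.1 CPM without being called (log2 fold change 0.56, adjusted p = 0.29), and *Pecam1* (0.27, 0.15) and *Kdr* (0.26, 0.78) also had groups that did not overlap. *Tek*, the receptor for angiopoietins, went the other way, at 8.0 to 10.6 CPM against 11.7 to 14.9 CPM (-0.46, adjusted p = 0.061), while *Flt1* was at 0.01 and the glucose transporter *Slc2a1* at -0.12. Summed over the list, the level was 600 to 657 CPM in *Htt* ASO mice and 562 to 589 CPM in control ASO mice, and 554 to 662 CPM in Q111/+ saline mice, which spans both.

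*Cd93*, a transmembrane protein of endothelial and myeloid cells, lay between 15.5 and 22.5 CPM (median 20) against 8.25 to 12.2 CPM (median 10.2), a 1.90-fold rise. *Angpt2*, which endothelium releases when activated and which binds the *Tek* receptor, lay between 2.81 and 4.99 CPM (median 4.35) against 1.37 to 2.63 CPM (median 1.55). The log2 fold change was 1.29 (SE 0.24, adjusted p = 0.0031 by limma), and the groups did not overlap. *Nos3*, the endothelial nitric oxide synthase, rose 1.28-fold, and the adhesion molecules *Icam1* and *Icam2* rose 1.59-fold and 1.58-fold. Each of these last 3 calls was lost on leaving out any 1 of several mice. That of *Nos3* was lost without mouse GR4, GS1, GV1 or GW1 (adjusted p = 0.0544 to 0.0832), that of *Icam1* without any of 6 mice (GR4, GS1, GS2, GT1, GV2 and GW2, up to 0.109) or with only the groups compared (0.0654), and that of *Icam2* without any of 9 (all but GT1, GW2 and GZ1, up to 0.147), by edgeR, with the L number as a covariate or with the mouse-name block (up to 0.133).

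The remaining called higher genes are outside the interferon lists, which does not show that they are unrelated to interferon. Of those below, *2310016F22Rik*, *Slfn5* and *Lgals9* held 2 ISRE cores each in a promoter window. The windows of *Pltp*, *Trim59*, *Rhoc* and *Ifi35* held none. *2310016F22Rik* (current symbol *Apol9b*, an apolipoprotein L gene) had the largest fold of all, 6.67, at 0.756 to 1.56 CPM against 0.0531 to 0.300 CPM. *Slc40a1*, the iron exporter ferroportin, rose 1.40-fold from 9.27 to 11.8 CPM up to 13.4 to 16.3 CPM. *Lgals9* lay between 5.6 and 6.76 CPM against 3.52 to 4.41 CPM, and *Slfn5* rose 1.56-fold with overlapping groups. *Pltp*, the phospholipid transfer protein, was the one called gene of the 6 tested ependymal markers and rose 1.30-fold, from 64.1 to 81.3 CPM up to 89.1 to 109 CPM. *Trim59*, a tripartite motif protein, went from 21.0 to 28.4 CPM up to 31.0 to 35.1 CPM. *Anxa3*, an annexin, and *Rhoc*, a small GTPase of the cytoskeleton, had small folds of 1.25 and 1.27 without overlap between groups. *Ifi35* lay between 2.74 and 3.08 CPM against 1.70 to 2.53 CPM, also without overlap (log2 fold change 0.50, adjusted p = 0.0016 by limma).

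Of the 5 called lower genes, 2 belong to the list of 15 glucocorticoid-responsive genes. *Sgk1* (listed as *Sgk*), a kinase induced by glucocorticoids, lay between 180 and 250 CPM in *Htt* ASO mice (median 209) and between 253 and 312 CPM in control ASO mice (median 268). The fold was 0.77 (log2 -0.38, SE 0.08, adjusted p = 0.016 by limma), and the call was lost without mouse GV2 or HA1 (adjusted p = 0.0701 and 0.0659). *Nfkbia*, which holds NF-kappaB in the cytoplasm, lay between 15.6 and 19.2 CPM against 20.8 to 26.2 CPM, and was called only with all 12 mice or without GR4, GT1 or GY2, and not with library totals (adjusted p = 0.056). Neither gene was called without GV2 or HA1. Of the 15 genes of the list, 14 had a negative log2 fold change, with a median of -0.27. *Tsc22d3*, the glucocorticoid-induced leucine zipper, lay between 108 and 118 CPM against 118 to 155 CPM without being called (-0.24, adjusted p = 0.16), and *Fkbp5* had -0.24 (0.37). In +/+ mice the median of this list was -0.079.

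The other called lower genes were *Eln*, *Tilz3b* and *Net1*. *Eln*, which encodes the elastin of vessel walls, lay between 3.33 and 4.28 CPM against 4.22 to 6.31 CPM, with a slight overlap. *Tilz3b*, a name that could not be matched to a current gene, lay between 2.49 and 3.66 CPM against 4.10 to 5.02 CPM. *Net1*, a guanine nucleotide exchange factor, fell by 0.33 on the log2 scale, with no overlap. All 3 calls were lost without single mice, that of *Eln* without any of 6 (adjusted p up to 0.0671), that of *Tilz3b* without any of 5 (up to 0.105) and that of *Net1* without any of 11 (up to 0.171). The call of *Net1* was also lost with library totals, the L number as a covariate or the mouse-name block (up to 0.0866), and that of *Tilz3b* with only the groups compared (0.0501). The number of genes called lower was 1 without mouse GS1 or GS2, 2 without GU2, GV2, GW1, GW2 or HA1, 3 without GY2 and 8 without GT1.

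*Htt* itself did not differ detectably in this tissue. The gene, listed under its older name *Hdh*, lay between 60.9 and 83.6 CPM in *Htt* ASO mice (median 72.0) and between 65.3 and 88.1 CPM in control ASO mice (median 73.5), with the groups overlapping. The log2 fold change was -0.07 (SE 0.09), and its 95% interval ran from -16.8% to 8.62%. An exact two-sided permutation test over the 924 splits of the 12 mice gave p = 0.444, where the smallest value it allows is 0.00216. Reads of the Q111 and the wild-type allele are counted together. Since the ASO was given outside the brain, this level is no check of the treatment labels.

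The 4 striatal transcripts that the study followed also overlapped between the groups. *Drd1a*, the dopamine D1 receptor, had a median of 220 CPM against 222 CPM (log2 fold change -0.01, 95% interval -0.10 to 0.09, exact permutation p = 0.887). *Pde10a*, a phosphodiesterase of medium spiny neurons, had medians of 1260 and 1339 CPM (-0.03, -0.15 to 0.10, exact permutation p = 0.736). *Islr2* and *N4bp2* (listed as *B3bp*), which are higher in Q111/+ mice, had log2 fold changes of 0.11 (-0.09 to 0.32, exact permutation p = 0.392) and -0.08 (-0.35 to 0.19, p = 0.582). Over the 26 medium spiny neuron identity genes, the median log2 fold change was -0.019, the range -0.094 to 0.075, and limma called none. The 50 genes most lower and the 50 most higher by genotype in the saline mice, a comparison in which 3078 genes were called (17.4%), had medians of -0.021 and -0.0093 with *Htt* ASO against control ASO and none called by limma.

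**Figure D3:**
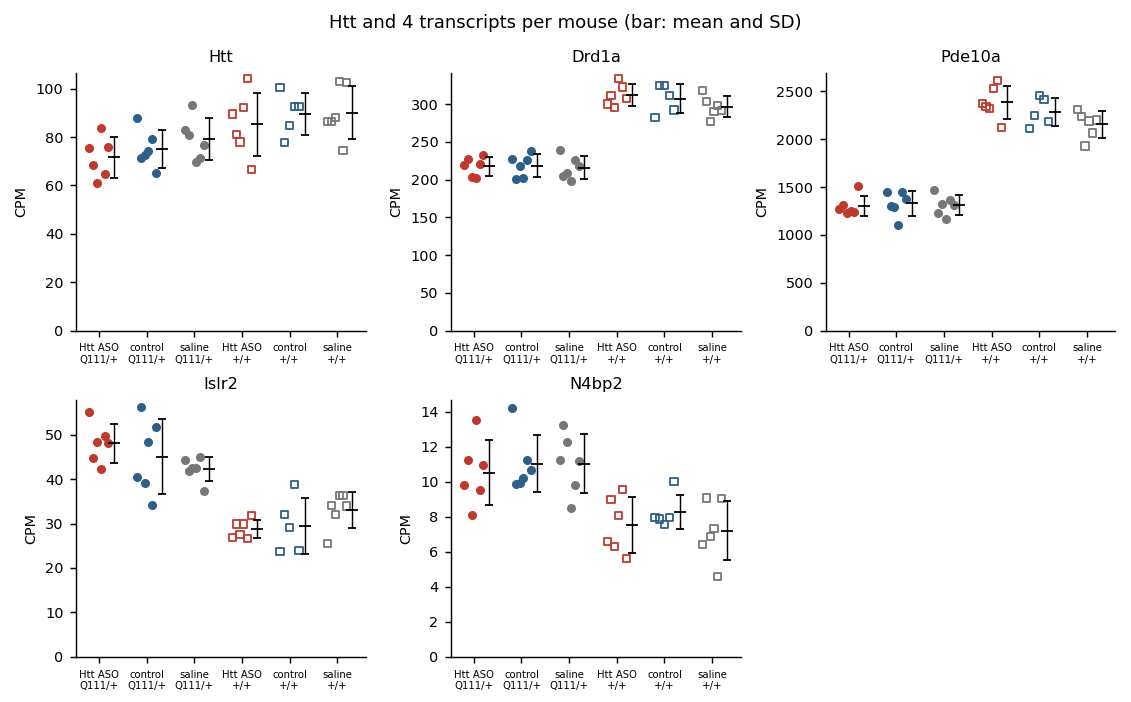
Level in CPM (vertical axes, linear, from 0) of *Htt* and the 4 transcripts in each mouse, by treatment and genotype; filled circles are Q111/+ mice, open squares +/+ mice, bars the mean and SD. The *Htt* ASO and control ASO mice of each genotype overlap in every panel, while *Drd1a* and *Pde10a* sit lower in Q111/+ than in +/+ mice.

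Marker lists of other cell types had medians mostly near 0. Among 18 microglial markers 17 had a positive log2 fold change, where 45.6% of all tested genes did. Their median was 0.052, and 0.020 in +/+ mice. Against Q111/+ saline mice it was -0.027 for *Htt* ASO and -0.073 for control ASO. Their summed level was 700 to 791 CPM in *Htt* ASO mice against 662 to 760 CPM in control ASO mice. Of 14 listed lymphocyte genes only *Cd4* had enough counts to be tested (67.8 to 80.2 CPM against 74.6 to 81.2 CPM), and of 8 neutrophil genes none had, with a summed level of 0.153 to 0.644 CPM against 0.0261 to 0.446 CPM. Of 14 oligodendrocyte genes, 13 had a positive value with a median of 0.099, but the median was -0.040 in +/+ mice. Against Q111/+ saline mice it was -0.014 for *Htt* ASO and -0.11 for control ASO. *Sox10*, the oligodendrocyte transcription factor, lay between 56.8 and 64.8 CPM against 42.5 to 55.7 CPM (log2 fold change 0.31, adjusted p = 0.13). Reactive astrocyte genes had a median of 0.24 (0.027 in +/+ mice), with *Lcn2* at 0.428 to 1.37 CPM against 0.0797 to 0.365 CPM (1.87, adjusted p = 0.32). In these lists and in those for astrocytes, oligodendrocyte precursors, mural cells, choroid plexus, cortical neurons, interneurons and macrophages, limma called no gene in the model of all 35 mice. With only the groups compared, it called 1 reactive astrocyte and 1 oligodendrocyte gene. No gene was called among the complement, unfolded protein response, immediate early and circadian clock genes by limma in all 35 mice, with medians of 0.093, 0.0081, 0.035 and -0.032.

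Red blood cell and choroid plexus genes varied widely between mice. The haemoglobin genes *Hbb-b1* and *Hba-a2* and *Alas2* had log2 fold changes of 0.84 to 0.93, and the summed level of the red blood cell list was 78.7 to 158 CPM in *Htt* ASO mice against 18.7 to 140 CPM in control ASO mice. In +/+ mice the median of these 3 genes had the opposite sign, -0.29. The choroid plexus list had a median of 0.23 in Q111/+ mice and -0.79 in +/+ mice, with a summed level of 53.9 to 154 CPM against 46.9 to 81.4 CPM in Q111/+ mice. The part of endothelial, blood or choroid plexus content in the called genes was not tested.

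The same contrast in +/+ mice, which shares no mouse with this one, addresses whether the difference was also present without the mutation. There 52 genes were called (0.295%), 48 of them higher (0.272%), and 32 were called in both genotypes, all in the same direction, which is 50.8% of the 63 and 61.5% of the 52. Of the 58 genes called higher in Q111/+ mice, 57 were higher in +/+ mice, with a median log2 fold change of 0.61, and all 5 lower genes were lower, with a median of -0.29. For *Oas2* the log2 fold change was 1.94 in +/+ mice, for *Irf7* 1.92, for *H2-K1* 0.76 and for *Angpt2* 1.23. One +/+ control ASO mouse, GV3, stood high for vessel-related genes, with *Ly6a* at 54.2 CPM where the 4 others lay between 24.2 and 28.7 CPM, and it was the highest of its 5 mice for 35 of the 58 genes. Without it, 73 genes were called in +/+ mice, 35 of them among the 63, the median for the 58 genes was 0.69, and the log2 fold change of *Ly6a* went from 0.63 to 0.83. Without another +/+ control ASO mouse, HD4, 34 genes were called, 26 of them among the 63.

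No gene passed the test of the difference between genotypes. limma called 0 interactions, with a smallest adjusted p of 0.999, and edgeR and DESeq2 also called 0. By limma, 713 of the 17639 genes had an unadjusted p under 0.05, fewer than evenly spread p-values would give. Some genes had smaller estimates in +/+ mice. *Trim59* had a log2 fold change of 0.45 in Q111/+ and 0.06 in +/+ mice, *Uaca* 0.32 and 0.01, *Fes* 0.38 and -0.0003, and *Serpinh1* 0.32 and 0.01. The adjusted interaction p by limma was 0.999 for each, so a difference between genotypes was not shown. The Q111/+ call of *Fes* was lost without mouse GR4, GS1 or GW2 (adjusted p up to 0.0742) or with only the groups compared (0.102). That of *Serpinh1* was lost without GR4, GS1, GU2, GV2, GW1, GW2, GY2 or HA1 (up to 0.178). It was also lost with the L number as a covariate or with only the groups compared (up to 0.0708).

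**Figure D4:**
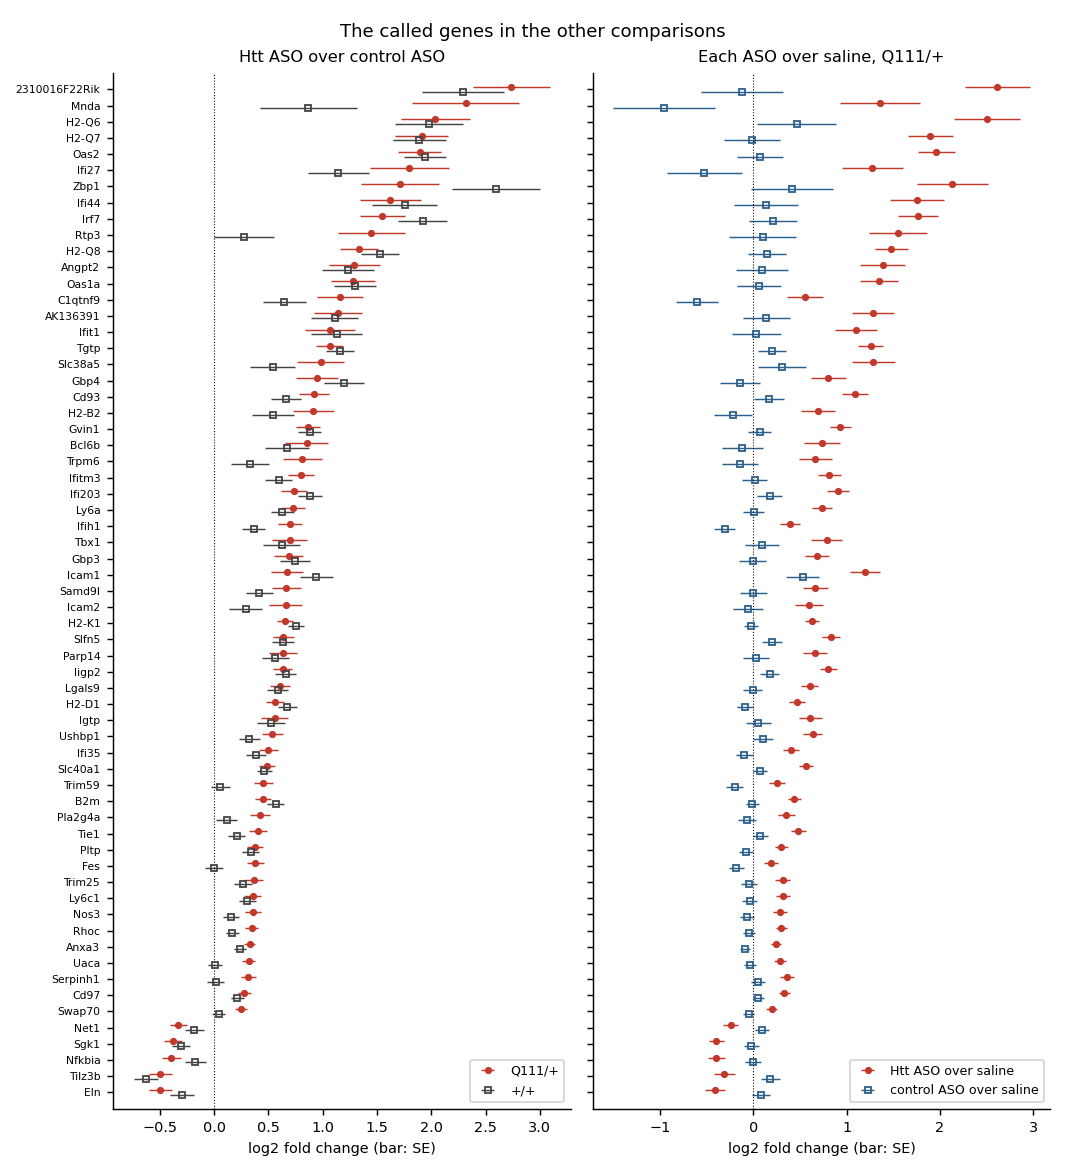
Log2 fold change with SE (horizontal axes) of the 63 called genes, one row per gene. On the left, *Htt* ASO against control ASO in Q111/+ mice (red) and in +/+ mice (open squares), where 62 of 63 share their sign; on the right, *Htt* ASO (red) and control ASO (blue) against saline in Q111/+ mice, where the control ASO points scatter around 0.

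The saline mice give the level without any ASO. Against the 6 Q111/+ saline mice, the 58 called higher genes had a median log2 fold change of 0.69 for *Htt* ASO and 0.0018 for control ASO, and the 5 lower genes -0.40 and 0.083. These comparisons share mice with the main one, the first the *Htt* ASO mice and the second the control ASO mice. *Htt* ASO against saline called 86 genes higher (0.488%) and 12 lower, and 46 of the 98 were among the 63. Control ASO against saline called 0 genes by limma and edgeR and 1 by DESeq2. By limma, 512 of the 17639 genes had an unadjusted p under 0.05, again fewer than evenly spread p-values would give. For single genes, *Oas2* lay between 0.905 and 1.63 CPM in saline mice, *H2-K1* between 23 and 28.5 CPM, *Angpt2* between 0.835 and 2.24 CPM and *Sgk1* between 238 and 337 CPM, all overlapping the control ASO mice. The saline mice of *Sgk1* also overlapped its *Htt* ASO mice (180 to 250 CPM). *Icam1* had a log2 fold change of 0.53 for control ASO against saline and 1.20 for *Htt* ASO. *Ifih1* had -0.31 for control ASO and 0.39 for *Htt* ASO, and its saline mice (3.22 to 4.63 CPM) overlapped the *Htt* ASO mice. The saline mice of *C1qtnf9* (0.446 to 0.854 CPM) also overlapped its *Htt* ASO mice (0.613 to 0.98 CPM). Its control ASO mice lay between 0.246 and 0.547 CPM. For Q111/+ against +/+ in saline mice, the 58 genes had a median log2 fold change of -0.14. There, 2 of the 58 higher genes were called, *Ifi203* (-0.43) and *Ifi27* (-1.28), both lower in Q111/+, and of the 5 lower genes *Net1* was called (0.32).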

How the data were processed

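Striatal mRNA was sequenced from 35 mice, of which 12 are described here. The authors aligned paired reads to the mouse transcriptome (mm9) with Bowtie 0.12.9 and deposited estimated counts per gene from RSEM 1.1.18 (expected counts, not whole numbers), which spread reads shared by similar genes among them. Counts were scaled by TMM in edgeR 4.0.16, genes with too few counts were dropped by filterByExpr (minimum count 10, minimum total 15), and 17639 of 22099 genes were tested with voom and limma 3.58.1 in R 4.3.3, in 1 model of 6 groups over all 35 mice, which share 1 estimate of spread. Values were rounded for edgeR and DESeq2 1.42.0, used as alternatives. The scripts were tested on simulated data. Groups came from the genotype and treatment labels. Each library is 1 mouse, and no pair of libraries within the Q111/+ *Htt* ASO group or within the Q111/+ control ASO group was a duplicate.

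The members and gene lists were chosen with earlier results of these data known. Genes named by rule were the 25 called genes with the smallest adjusted p, all called lower genes, the 5 largest log2 fold changes each way among called genes of at least 1 CPM, called members of the lists, *Htt*, the 4 transcripts of the study, and abundant members of lists without a call. Other named genes were chosen after their values were seen. Old gene names were matched to current symbols directly (13479) or through 1 synonym (3203), and 5417 had no match. Promoter sequence is from RefSeq, GRCm38.p6. Alternatives were other tools, scalings, filters, covariates and weights, and leaving out each mouse in turn. Values of some single members of the lists are not reported here, though they count in the list totals.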

Additional observations from a re-analysis of the deposited data

Results flagged for a closer look

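Within each group of 5 or 6 mice that received an ASO, the highest and the lowest mouse were compared with the nearest other mouse, relative to the group's range. This was done for the 63 called genes, *Htt* and the 4 transcripts of the study (Dixon's criterion at the 95% level), not for the other genes named above. Of 272 gene and group sets, 19 (6.99%) held a mouse that stood apart, where chance gives about 5%.

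In the Q111/+ *Htt* ASO group, mouse GV1 stood above the others for *H2-K1* (47.9 CPM), *Ly6a* (46.4 CPM), *B2m* (104 CPM), *Gbp3* (10.1 CPM) and *Zbp1* (1.04 CPM), and it was the highest of the 6 mice for 34 of the 58 called higher genes. Mouse GZ1 was high for *Pde10a* (1513 CPM). In the Q111/+ control ASO group, mouse GY2 was high for *Angpt2* (2.63 CPM), and mouse GR4 was low for *Rtp3* (0.0279 CPM) and high for *B3bp* (14.2 CPM).

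In the +/+ control ASO group, mouse GV3 stood above the others for *Ly6a* (54.2 CPM), *Ifitm3* (12.2 CPM), *Ly6c1* (69.3 CPM), *Slc38a5* (5.29 CPM) and *Icam2* (5.89 CPM). In the same group mouse HD4 stood apart for *AK136391* (0.366 CPM) and mouse HI1 for *B3bp* (10.0 CPM). In the +/+ *Htt* ASO group, mouse GW4 was high for *Oas2* (7.75 CPM) and *Lgals9* (8.22 CPM), and mouse GT3 stood apart for *Ifitm3* (14.5 CPM). The part of any single mouse's tissue content in these values was not tested.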

How the results depend on the processing

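All 63 genes kept their direction under 11 alternatives, 42 were called in each alternative that kept the gene, 37 whichever of the 12 mice was left out, and 36 in both. DESeq2 called 98 genes, all 63 among them, and 12 lower. The count of lower genes was 3 with library totals and 8 with only the groups compared. The other alternatives called 51 to 78 genes. Leaving out 1 mouse gave 46 to 71 called genes, 42 to 66 higher and 1 to 8 lower. In +/+ mice 27 genes were called with only the groups compared, and 34 to 73 with 1 mouse left out. *Htt* ASO against saline called 152 genes by DESeq2, and control ASO against saline 1. The interaction had 0 calls in every setting tried. The log2 fold change of *Htt* ran from -0.12 to -0.03 with 1 mouse left out. Values near 0 changed sign: *Drd1a* was 0.0114 with library totals, 0.0065 with the L number as a covariate and -0.0322 to 0.0167 with 1 mouse left out, and *Pde10a* was -0.0801 to 0.00017 with 1 mouse left out, the highest without control mouse GY2. The cause was not tested. No paired analysis was possible because the labels give no replicate numbers; blocking on the first 2 letters of the mouse name was run instead and kept 61 of the 63 calls (64 in all), and adjusting for the L number kept 50 (51 in all). Depth limits genes of low level: 8 called genes had a mean under 1 CPM.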
